A study of Mus musculus with 16 samples.

Results

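Macrophages take up dead cells and microbes and show peptides from them to T cells. They live and survive through the receptor Csf1r, signal through the adaptor Tyrobp, secrete lysozyme and the recognition protein C1q of the complement system, and load peptides onto MHC class II dimers whose chains are guided by the invariant chain Cd74. In the olfactory mucosa such cells lie among sensory neurons that die and are replaced throughout life. Genes of these functions were listed by name, with earlier results of these data known: Csf1r, Tyrobp, Lyz2, C1qa, C1qb, C1qc, H2-Aa, H2-Ab1, H2-Eb1 and Cd74. Of the 10 genes, 9 had a probe set with a gene name, 1 probe set each, out of 19505 named genes on the array. Cd74 was not analysed here.

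The study asked which odorant receptor neurons respond to bourgeonal, a synthetic odorant with a floral smell, in living mice. All animals were C57BL/6 mice of both sexes, 7 to 12 weeks old, that carried the S100a5-tauGFP reporter, in which green fluorescent protein reports S100a5, a gene whose level in olfactory neurons depends on activity. Each of 24 mice stayed for 40 h in its own clean-air chamber at 3.1 L per min, and from hour 26 on it received a 10 s pulse every 20 min of either bourgeonal (odor) or filtered air (vehicle). Dissociated mucosa was pooled from 3 mice and sorted by fluorescence, and 50 to 100 ng of RNA per sorted fraction was hybridised to a Clariom S mouse array. This gave 4 groups of 4 libraries: odor titled GFP-, odor titled GFP+, vehicle titled GFP- and vehicle titled GFP+.

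The names of the gates need care. In all 16 libraries the title gives one gate and the field for the cell type gives the other. Titles define the groups here, so "titled GFP-" and "titled GFP+" are names and not a statement on fluorescence. In each of the 8 pools S100a5 itself had more signal in the fraction titled GFP-, by 1.02 ± 0.25 on the log2 scale (SD). Omp, the marker of mature olfactory neurons, had adjusted p = 0.552 for the gate ratio in odor pools and 0.917 in vehicle pools (limma), and its values of 18.63 to 18.97 lay close to the array maxima of 19.38 to 19.59. Each library is a pool of mixed cells, so fewer cells of a type and less RNA per cell cannot be told apart in any value below.

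Values are log2 signals as deposited, and the gate ratio is titled GFP- over titled GFP+ within a pool, so a negative ratio means lower in the libraries titled GFP-. Levels of different probe sets are not set against each other. As a gauge of background, each library was given the 95th percentile of 319 vomeronasal receptor genes, which ran from 4.29 to 4.97 over the 16 libraries. It was 4.29 to 4.64 in libraries titled GFP+ and 4.69 to 4.97 in libraries titled GFP-. The same signal can therefore count as above background in a library titled GFP+ and not in one titled GFP-. A fold written "at least" is a lower bound: the mean of the libraries titled GFP+ over the mean of the libraries titled GFP-, with each of these set to its gauge where its own signal was lower. Log2 ratios and tests use the signals as they are. Libraries of one group correlated at 0.990 to 0.994 over all genes.

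Every measured gene of the group had less signal in the libraries titled GFP- than in those titled GFP+, in all 8 pools. In odor pools 8 of 9 passed an adjusted p of 0.05 in limma and fell, and in vehicle pools 9 of 9 did. The corresponding share of all genes called lower was 10.2% in odor pools and 9.95% in vehicle pools, and the share called higher was 7.82% in odor pools and 6.23% in vehicle pools. These shares also stand beside the counts of each gene list below. The median log2 gate ratio of the 9 genes was -3.23 in odor pools and -3.40 in vehicle pools, beside 0.10 and 0.09 over all genes. With the genes that no library titled GFP- measured above background at their bound (C1qc at 0 in odor pools), these medians were -3.10 in odor pools and -3.40 in vehicle pools. Genes with any library titled GFP- above background kept their fitted ratio, here and in the list medians below. The vehicle median is thus the fitted ratio of Csf1r, above background in 1 of 4 libraries titled GFP-. At its bound Csf1r differed by 2.88 on the log2 scale in vehicle pools. For all 9 genes the 4 libraries titled GFP- lay below the 4 titled GFP+ without overlap in both treatments, as did 10.1% of all genes in odor pools and 10.2% in vehicle pools. Of all genes, 10.6% were lower in each of the 8 pools.

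**Figure D1:**
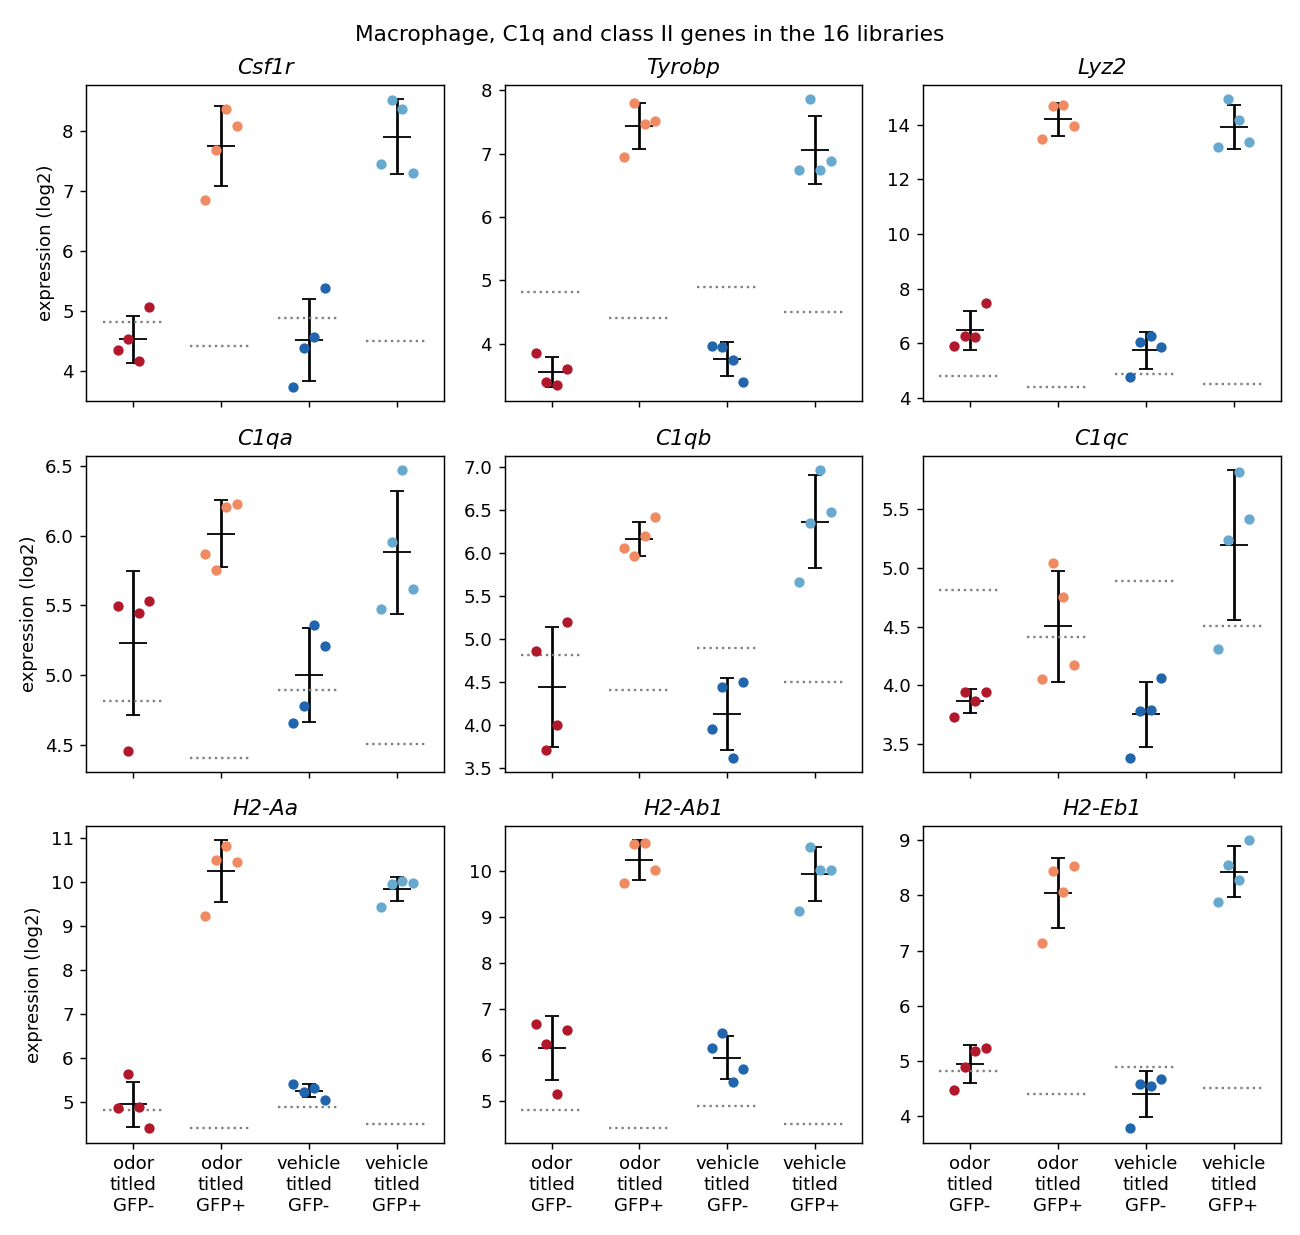
Log2 signal (vertical axis) of the 9 measured genes in the 4 groups, 1 panel per gene; each point is 1 library, the black mark is the mean with its SD over 4 libraries, and the dotted grey line is the group mean of the background gauge. In each panel the libraries titled GFP- lie below those titled GFP+ of the same treatment, and the points of C1qc and Tyrobp titled GFP- all lie under the dotted line.

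Csf1r is the receptor for colony stimulating factor 1 and interleukin 34, on which most tissue macrophages depend. Its signal was 4.34, 4.54, 4.16 and 5.06 in odor libraries titled GFP-, against 6.86, 7.69, 8.38 and 8.09 in odor libraries titled GFP+. In vehicle pools it was 3.73, 4.38, 4.57 and 5.38 in libraries titled GFP-, against 7.46, 8.53, 8.37 and 7.30 in libraries titled GFP+. The gates did not overlap in either treatment, and only 1 of 4 libraries titled GFP- was above background in each. The gate ratio was -3.23 (SE 0.35, 95% interval -4.01 to -2.45, adjusted p = 7.06e-05, limma) in odor pools, and Csf1r was at least 7.47-fold lower there. It was -3.40 (SE 0.35, adjusted p = 5.51e-05) in vehicle pools, at least 7.38-fold lower. The pools differed among themselves, with the smallest difference, -1.92, in vehicle pool 4, whose library titled GFP- was the one above background.

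Tyrobp encodes DAP12, a membrane adaptor through which Trem receptors and others signal in myeloid and natural killer cells. Its signal was 3.86, 3.40, 3.35 and 3.60 in odor libraries titled GFP-, against 6.95, 7.80, 7.47 and 7.51 in odor libraries titled GFP+. Vehicle libraries titled GFP- had 3.96, 3.95, 3.74 and 3.39, against 6.74, 7.85, 6.74 and 6.88 in vehicle libraries titled GFP+. None of the 8 libraries titled GFP- was above background, so only a bound can be given for the fold. Tyrobp was at least 6.15-fold lower in odor pools (adjusted p = 7.94e-07, limma) and at least 4.48-fold lower in vehicle pools (adjusted p = 2.99e-06).

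Lyz2 encodes lysozyme M, the bacteriolytic enzyme of macrophages and neutrophils. Odor libraries titled GFP- had 5.90, 6.27, 6.22 and 7.50, against 13.48, 14.66, 14.73 and 13.93 in odor libraries titled GFP+. Vehicle libraries titled GFP- had 4.76, 6.07, 6.28 and 5.88, against 13.17, 14.92, 14.17 and 13.37 in vehicle libraries titled GFP+. The lowest library titled GFP+ was thus far above the highest titled GFP-. The gate ratio was -7.73 (SE 0.32, adjusted p = 7.42e-08, limma) in odor pools, or 212-fold lower with a 95% interval of 129-fold to 348-fold. In vehicle pools, where 3 of 4 libraries titled GFP- were above background, it was -8.16 (SE 0.32, adjusted p = 6e-08), at least 278-fold lower. Lyz1, the neighbouring paralog that Paneth cells express in the gut, was at least 2.61-fold lower (adjusted p = 0.000301) in odor pools and at least 2.02-fold lower (adjusted p = 0.00501) in vehicle pools. The 2 genes are close in sequence, and a probe set of one could take up RNA of the other; this was not tested.

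**Figure D2:**
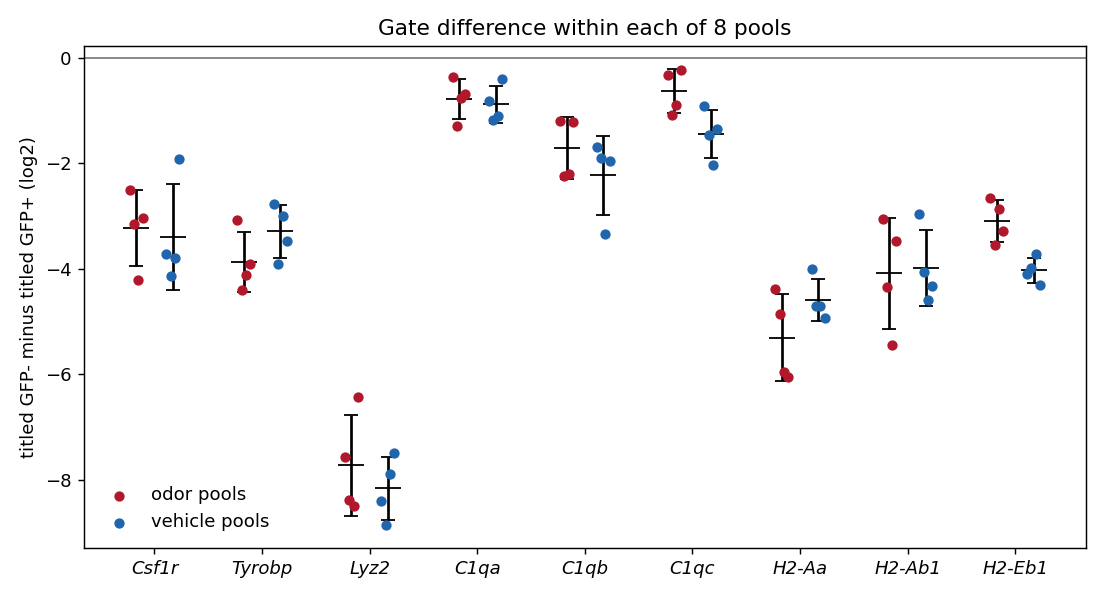
Gate difference, titled GFP- minus titled GFP+ (log2 signal), of the 9 measured genes in each pool, with odor and vehicle pools marked apart; each point is 1 pool of 3 mice and the black mark is the mean with its SD over 4 pools. All points lie below 0, from near it for C1qc (-0.23 in odor pool 4) to -8.86 for Lyz2 in vehicle pool 2.

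The 3 chains of C1q, which together form the molecule that binds antibody, dying cells and synapses and starts the classical complement pathway, are encoded next to each other on chromosome 4 in the order C1qb, C1qc, C1qa (RefSeq, GRCm38.p6). C1qa had 5.49, 4.46, 5.45 and 5.53 in odor libraries titled GFP-, against 5.87, 5.76, 6.21 and 6.23 in odor libraries titled GFP+. In vehicle pools C1qa had 4.66, 4.78, 5.36 and 5.21 in libraries titled GFP-, against 5.48, 5.95, 6.47 and 5.62 in libraries titled GFP+. The groups came close without overlapping, and the gate ratio was -0.78 (SE 0.17, adjusted p = 0.0101, limma) in odor pools and -0.88 (SE 0.17, adjusted p = 0.00555) in vehicle pools. Of the libraries titled GFP-, 3 of 4 in odor pools and 2 of 4 in vehicle pools were above background, and C1qa was at least 1.65-fold and at least 1.70-fold lower. The call in odor pools was lost under quantile normalization (-0.43, adjusted p = 0.105) and without odor replicate 2 (-0.61, adjusted p = 0.0568).

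C1qb had 4.86, 3.71, 4.00 and 5.20 in odor libraries titled GFP-, 2 of 4 above background, against 6.05, 5.96, 6.20 and 6.41 in odor libraries titled GFP+. In vehicle pools it had 3.96, 4.44, 3.62 and 4.50 in libraries titled GFP-, none above background, against 5.66, 6.35, 6.96 and 6.47 in libraries titled GFP+. It was at least 2.38-fold lower in odor pools (log2 ratio -1.71, SE 0.28, adjusted p = 0.00136, limma) and at least 2.77-fold lower in vehicle pools (adjusted p = 0.000232). C1qc lay close to the background gauge. It had 3.73, 3.95, 3.86 and 3.94 in odor libraries titled GFP-, against 4.05, 5.04, 4.75 and 4.17 in odor libraries titled GFP+, of which 2 of 4 were above background. In vehicle pools C1qc had 3.39, 3.78, 3.79 and 4.06 in libraries titled GFP-, against 4.31, 5.24, 5.82 and 5.41 in libraries titled GFP+, of which 3 of 4 were above background.

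C1qc was the gene that did not pass in odor pools, at an adjusted p of 0.0512 (limma). All 4 odor libraries titled GFP- and 2 of 4 titled GFP+ were at background. No fold can be given there, since the mean titled GFP+ of 4.50 lay below the mean gauge of 4.81 titled GFP-. In vehicle pools C1qc fell by at least 1.23-fold (adjusted p = 0.000456, limma). The odor p lies near the threshold. C1qc passed when dim probe sets were left out (adjusted p = 0.0368, limma). It met that filter only through libraries titled GFP+, and its ratio stayed the same, so this pass is not separate evidence. C1qc passed without odor replicate 4 (adjusted p = 0.0486, limma). It also passed without vehicle replicate 1 (adjusted p = 0.0411) or 3 (adjusted p = 0.0347), each of which enters the shared estimate of the spread. Under the other alternatives it did not pass, and without 1 replicate its adjusted p was as high as 0.209 (limma). Over all alternatives its log2 ratio in odor pools ran from -0.77 to -0.28.

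The promoters of C1qb, C1qc and Lyz2 are shown because each holds the letters ACTTCCT in its 250 bases before the start, the reverse complement of AGGAAGT. These letters are a core that factors of the ETS family, PU.1 of macrophages among them, are known to bind. Capitals mark the match in stretches of 60 bases from RefSeq (GRCm38.p6), all from the minus strand and written 5′ to 3′ along the gene: chr4:136886221-136886280 for C1qb, chr4:136893077-136893136 for C1qc and chr10:117282340-117282399 for Lyz2.
C1qb: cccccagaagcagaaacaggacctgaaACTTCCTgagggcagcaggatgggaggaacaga
C1qc: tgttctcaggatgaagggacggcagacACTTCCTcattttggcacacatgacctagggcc
Lyz2: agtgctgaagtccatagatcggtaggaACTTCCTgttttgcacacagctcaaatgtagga
The match begins 53 bases before the start in C1qb, 195 in C1qc and 100 in Lyz2. On both strands, 7.69% of 32851 promoter windows hold the motif in the 250 bases before the start. The motif was picked after these sequences had been read, and a match is a description of letters. Spi1, which encodes PU.1, had mean signals of 6.17 in odor libraries titled GFP- and 13.97 in odor libraries titled GFP+, and of 6.12 in vehicle libraries titled GFP- and 13.72 in vehicle libraries titled GFP+.

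H2-Aa and H2-Ab1 encode the alpha and beta chains of the class II molecule I-A, and H2-Eb1 encodes the beta chain of I-E, whose alpha chain C57BL/6 mice do not make. The 3 genes lie next to each other on chromosome 17 in the order H2-Ab1, H2-Aa, H2-Eb1. H2-Aa had 4.86, 5.65, 4.88 and 4.41 in odor libraries titled GFP-, against 9.24, 10.50, 10.83 and 10.45 in odor libraries titled GFP+. In vehicle pools H2-Aa had 5.42, 5.24, 5.32 and 5.05 in libraries titled GFP-, against 9.43, 9.95, 10.02 and 9.99 in libraries titled GFP+. It was at least 36.4-fold lower in odor pools, with 3 of 4 libraries titled GFP- above background (log2 ratio -5.31, SE 0.27, adjusted p = 2.52e-07, limma) and 24.1-fold lower in vehicle pools (-4.59, SE 0.27, adjusted p = 7.99e-07).

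H2-Ab1 had 6.66, 6.23, 5.16 and 6.55 in odor libraries titled GFP-, against 9.73, 10.58, 10.59 and 10.02 in odor libraries titled GFP+. In vehicle pools it had 6.16, 6.47, 5.42 and 5.69 in libraries titled GFP-, against 9.12, 10.53, 10.01 and 10.03 in libraries titled GFP+. All 8 libraries titled GFP- were above background for this gene, unlike for H2-Eb1. H2-Ab1 was 16.9-fold lower in odor pools (log2 ratio -4.08, SE 0.36, adjusted p = 1.55e-05, limma) and 15.9-fold lower in vehicle pools (-3.99, SE 0.36, adjusted p = 2.03e-05).

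H2-Eb1 had 4.48, 4.90, 5.18 and 5.24 in odor libraries titled GFP-, 3 of 4 above background, against 7.15, 8.44, 8.06 and 8.53 in odor libraries titled GFP+. In vehicle pools H2-Eb1 had 3.78, 4.58, 4.55 and 4.68 in libraries titled GFP-, none above background, against 7.89, 8.56, 8.28 and 8.996 in libraries titled GFP+. It was at least 8.10-fold lower in odor pools (log2 ratio -3.10, SE 0.16, adjusted p = 3.33e-07, limma) and at least 11.6-fold lower in vehicle pools (adjusted p = 6.96e-08).

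The H2-Aa and H2-Eb1 promoters are shown because both hold the letters CTGATTGG, the Y box of class II promoters, an inverted CCAAT element. Capitals mark it in stretches of 120 bases from RefSeq (GRCm38.p6), written 5′ to 3′ along the gene: chr17:34287824-34287943 on the minus strand for H2-Aa and chr17:34305747-34305866 on the plus strand for H2-Eb1.
H2-Aa: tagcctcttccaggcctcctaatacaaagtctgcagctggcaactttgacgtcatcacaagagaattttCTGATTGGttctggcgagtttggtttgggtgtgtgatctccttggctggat
H2-Eb1: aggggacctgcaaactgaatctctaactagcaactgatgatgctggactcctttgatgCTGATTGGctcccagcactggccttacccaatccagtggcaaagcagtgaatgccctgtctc
The Y box begins 51 bases before the start in H2-Aa and 62 in H2-Eb1. On both strands, 3.83% of the 32851 windows hold these letters in the 250 bases before the start. This motif too was picked after the sequences had been read. Of the 5 searched promoters, 2 hold these letters. Promoters of Csf1r, Tyrobp, C1qa, H2-Ab1 and Cd74 were not among the 5 and are not shown.

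Within the libraries titled GFP+, the pools of replicate number 1 stood low. Lyz2, Tyrobp, C1qc, H2-Aa, H2-Ab1 and H2-Eb1, 6 of the 9 genes, had their lowest value of 4 in replicate 1 of both treatments, as did 7.68% of all genes. For Tyrobp in vehicle libraries this was nearly a tie, 6.73911 in replicate 1 and 6.73915 in replicate 3. C1qc in replicate 1 was not above background in either treatment. Csf1r was lowest in replicate 1 in odor libraries, whereas in vehicle libraries replicate 4 was lowest. The summed signal of 12 neutrophil genes, such as Lcn2, Ngp and S100a8, was also lowest in replicate 1 of both treatments: 18.50 in odor replicate 1, with the other odor libraries titled GFP+ at 18.57 to 18.80, and 17.68 in vehicle replicate 1, with the other vehicle libraries titled GFP+ at 18.27 to 18.85 (log2). The summed signal of the 16 measured macrophage genes was 14.32 in odor replicate 1 and 13.82 in vehicle replicate 1, the lowest of its group in each case. What these libraries share beyond the number was not tested.

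Across the 8 libraries titled GFP+, the 36 pairs of the 9 genes had Pearson correlations from -0.12 (C1qb and Tyrobp) to 0.89 (Lyz2 and H2-Ab1), with a median of 0.46. Pairs within C1q reached 0.26 to 0.74, and pairs among the class II genes 0.42 to 0.76. Lyz2 followed Tyrobp at 0.81 and Csf1r at 0.76. These are descriptions over 8 libraries that differ in treatment and pool and share scaling and background. Of 12328 genes compared, those most like the mean of the 3 C1q genes were Plet1 (0.93), Ncam2 (0.92), Slc10a3 (0.91), and H3c14 and H3c15 (0.91 each), which carry identical values on this array. Those most like the mean of the 3 class II genes were Anxa4 (0.96), Csf3r (0.96), Tifa (0.96), Cenpe (0.96) and Psme1 (0.95).

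Of 16 measured genes of macrophage identity, 9 fell in odor pools and 8 in vehicle pools, with median fitted ratios of -0.87 and -0.88. With the 10 genes that no library titled GFP- measured above background at their bound, or at 0 where there is none, the medians were -0.62 and -0.36. Spi1, which had signal in every library, was 224-fold lower in odor pools (adjusted p = 8.11e-09, limma) and 194-fold lower in vehicle pools (adjusted p = 1.26e-08). Cd14, the co-receptor for bacterial lipopolysaccharide, was at least 6.31-fold lower in odor pools (adjusted p = 7.83e-07) and at least 3.48-fold lower in vehicle pools (adjusted p = 1.64e-06). Apoe, a lipid carrier that glia and sustentacular cells can also express, was 5.87-fold lower in odor pools (adjusted p = 0.000308) and 7.81-fold lower in vehicle pools (adjusted p = 0.000113). Ms4a6c, a myeloid membrane protein, was at least 3.27-fold lower in odor pools (adjusted p = 0.000677) and at least 2.28-fold lower in vehicle pools (adjusted p = 0.000967). Cd163, Mertk, Siglec1, Lyve1 and Folr2, which mark tissue-resident macrophages, were above background in no library of any group. Of the 16 markers, 11 were above background in at least 1 library. Among them, Mrc1 did not pass (adjusted p = 0.0527 in odor and 0.0624 in vehicle pools, limma), nor did Irf8 (0.207 and 0.156). Adgre1 passed in odor pools (0.0237) and not in vehicle pools (0.0605), with every library titled GFP- above background. Aif1 and Cx3cr1 passed in both, with no library titled GFP- above background and no fold to be given. Which cells carry these signals was not tested.

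Among receptors and ligands of the colony stimulating factors, 3 of 5 genes fell in both treatments. Csf3r was at least 30.1-fold lower in odor pools and at least 25.6-fold lower in vehicle pools, Csf2ra at least 14.2-fold and 10.3-fold, and Csf2rb at least 1.86-fold in each. These receptors bind the granulocyte and granulocyte-macrophage factors. The ligands of Csf1r did not pass: Csf1 had a log2 ratio of 0.34 in odor pools (adjusted p = 0.278, limma) and -0.20 in vehicle pools (adjusted p = 0.546), and Il34, above background in 2 and 1 of 4 libraries titled GFP-, had an adjusted p of 0.848 and 0.664.

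Of 15 measured genes around Tyrobp and the Fc receptors, 13 fell in odor pools and 11 in vehicle pools. The median fitted ratios were -2.26 and -2.25, and -2.03 and -1.88 with the 8 genes that no library titled GFP- measured above background at their bound. Fcer1g, the other such adaptor, was 50.7-fold lower in odor pools (adjusted p = 2.1e-07) and at least 41.5-fold lower in vehicle pools (adjusted p = 3.47e-07, limma). Fcgr3, a low-affinity receptor for IgG, was at least 28.6-fold lower in odor pools and at least 25.5-fold lower in vehicle pools. Vav1, an exchange factor of blood cells, was at least 16.7-fold and 14.97-fold lower. Trem1, a receptor of neutrophils and monocytes that signals through Tyrobp, was at least 11.6-fold and 6.23-fold lower. Trem2, a Tyrobp partner of macrophages and microglia, passed in odor pools (adjusted p = 0.031) and not in vehicle pools (adjusted p = 0.285), with no library titled GFP- above background and no fold to be given. Hcst, the neighbour of Tyrobp in the genome, was above background in no library.

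Beyond C1q, 7 of 13 measured complement genes fell in odor pools and 7 in vehicle pools. The median fitted ratios were -0.72 and -0.89. Of the 13 genes, 8 in odor pools and 9 in vehicle pools had no library titled GFP- above background. With those at their bound, or at 0 where there is none, the medians were -0.22 and -0.03. Itgam was at least 48.6-fold lower in odor pools and at least 37.96-fold lower in vehicle pools, and Itgb2, with which it pairs as complement receptor 3, at least 14.4-fold and 14.2-fold. No library titled GFP- was above background for either. C5ar1, the receptor of C5a, was at least 2.43-fold and 1.93-fold lower. Cfp, which encodes properdin and stabilises the alternative pathway convertase, had signal in every library and was 4.20-fold lower in odor pools and 3.67-fold lower in vehicle pools. C1s1, a protease that acts with C1q, was above background in no library, and C1ra, its partner, in 1 of 16 libraries.

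Of 17 genes of the class II pathway, 7 fell in odor pools and 6 in vehicle pools. The median fitted ratios were -0.59 and -0.47, and -0.04 and -0.18 with the 5 genes in odor pools and 6 in vehicle pools that no library titled GFP- measured above background at their bound. Ifi30, a thiol reductase of the endosome, was 20.6-fold lower in odor pools and 16.1-fold lower in vehicle pools. Ctss, the protease that trims the invariant chain, was at least 14.9-fold and 13.9-fold lower. Cd80, a costimulatory ligand, was at least 1.81-fold and 1.16-fold lower, and H2-Ob, which modulates peptide loading, at least 1.03-fold and 1.13-fold, with no library titled GFP- above background for either. For H2-Ob only 2 of 4 odor libraries titled GFP+ were above background. Ciita, the master regulator of class II transcription, had mean signals of 4.71 in odor libraries titled GFP- and 4.88 in odor libraries titled GFP+, and of 4.79 in vehicle libraries titled GFP- and 4.76 in vehicle libraries titled GFP+. Its gate ratio of -0.17 (adjusted p = 0.705, limma) in odor pools and 0.03 (adjusted p = 0.957) in vehicle pools did not pass. Rfx5, Rfxap and Rfxank, subunits of the factor that binds the X box, did not pass either, and neither did the loading factors H2-DMa, H2-DMb1 and H2-DMb2.

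MHC class I, which nucleated cells in general carry, gave 5 of 12 genes lower in odor pools and 6 of 12 in vehicle pools. The median fitted ratios were -0.17 and -0.57. With the 3 genes that no library titled GFP- measured above background at their bound, or at 0 where there is none, they were -0.05 and -0.14. B2m, the light chain of class I, was 23.5-fold lower in odor pools and 27.2-fold lower in vehicle pools. H2-K1 was 11.5-fold and 7.44-fold lower, and H2-D1 at least 5.73-fold and 4.16-fold. Psmb9, a subunit of the immunoproteasome, passed in vehicle pools (adjusted p = 0.00926, limma) and not in odor pools (adjusted p = 0.57), with no library titled GFP- above background and no fold to be given. Tapbp, Calr and Pdia3, which help to load class I, did not pass in either.

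Genes listed for several other cell types were also called lower in libraries titled GFP-. All 12 measured neutrophil genes fell in both treatments, with median fitted ratios of -8.07 in odor pools and -7.41 in vehicle pools, and -7.44 and -6.93 with the 4 genes that no library titled GFP- measured above background at their bound. Their summed log2 signal was 8.16 to 8.73 in odor libraries titled GFP- and 18.50 to 18.80 in odor libraries titled GFP+, and 7.72 to 9.001 in vehicle libraries titled GFP- and 17.68 to 18.85 in vehicle libraries titled GFP+. Lyz2, Tyrobp, Spi1, Itgam, Itgb2, Csf3r, Fcer1g and Fcgr3 are known to be expressed by neutrophils as well as by macrophages, and the part of neutrophils in their values was not tested. Of 8 measured B cell genes, 6 fell in odor pools and 5 in vehicle pools, and 7 were above background in no library titled GFP-. Jchain was at least 7.10-fold lower in odor pools and at least 7.35-fold lower in vehicle pools, Cd79a at least 4.64-fold and 4.91-fold, and Cd79b at least 2.15-fold and 1.96-fold. Vpreb3 passed in both, with no fold to be given. Cd22 passed in odor pools with no library of either gate above background. The eighth gene, Ebf1, which olfactory neurons also express, makes up nearly all of the summed signal of the list. Without Ebf1 the summed log2 signal was 6.20 to 6.68 in odor libraries titled GFP- and 8.08 to 9.61 in odor libraries titled GFP+, and 6.38 to 6.55 in vehicle libraries titled GFP- and 8.81 to 9.40 in vehicle libraries titled GFP+. B cells too carry class II, and their part in the class II values was not tested.

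Of 11 dendritic cell genes, 2 fell in both treatments with no library titled GFP- above background. Cd209a was at least 1.95-fold lower in odor pools and at least 1.77-fold lower in vehicle pools, and Ccl22 at least 1.26-fold lower in odor pools. Batf3 was higher in odor pools (adjusted p = 0.018, limma), with 2 of 4 libraries titled GFP- and none titled GFP+ above background. Flt3, Xcr1, Clec9a and Irf4 were above background in no library. Of the non-immune lists, 5 of 6 sustentacular genes fell in odor pools and 4 in vehicle pools, and 5 of 6 genes of immature neurons fell in both. Of 10 genes of mature olfactory neurons, Ano2 alone passed, and it was higher in both. Beside these counts, the share of all genes called lower was 10.2% in odor pools and 9.95% in vehicle pools. The share called higher was 7.82% in odor pools and 6.23% in vehicle pools, so 1 gene of 10 is near that share.

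**Figure D3:**
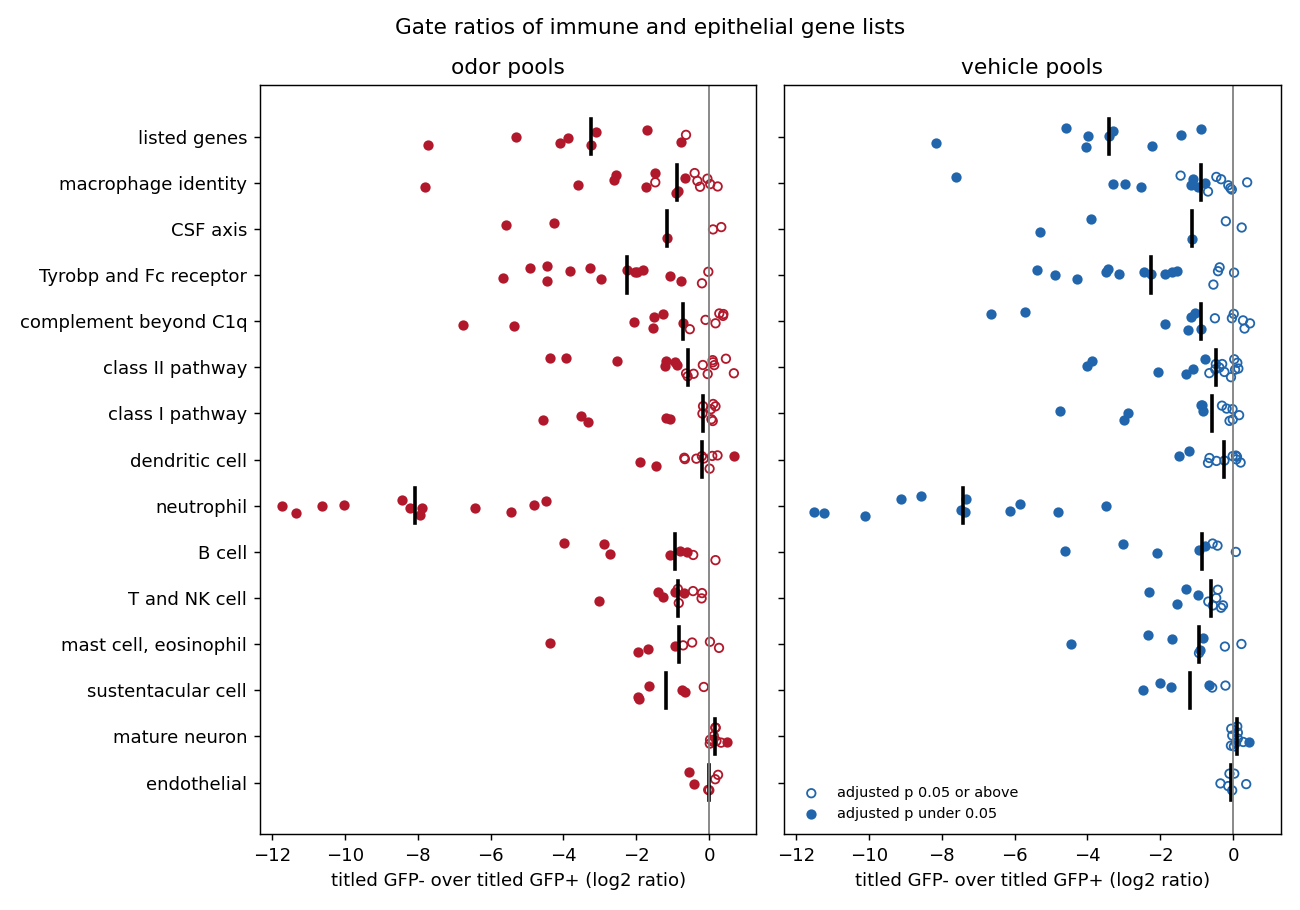
Log2 gate ratio, titled GFP- over titled GFP+, of every measured gene in 15 gene lists; filled points passed an adjusted p of 0.05 in limma, open points did not, and the black bar is the median of the list. Points are fitted ratios, including genes that no library titled GFP- measured above background. The neutrophil list has medians of -8.07 in odor pools and -7.41 in vehicle pools, and the measured genes described here have medians of -3.23 and -3.40.

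Whether the gate ratio differs with bourgeonal was tested as the odor ratio minus the vehicle ratio. None of the 9 genes passed (limma), as 0% of all genes did. At an unadjusted p under 0.05 (limma) the counts were 2 of the 9 genes and 1109 of all 19505 genes. The differences ran from -0.71 (H2-Aa) to 0.94 (H2-Eb1) with a median of 0.17. H2-Eb1 had 4 pool differences of -2.67, -3.55, -2.88 and -3.29 in odor pools, against -4.10, -3.98, -3.73 and -4.32 in vehicle pools. Its odor and vehicle pools did not overlap, which 1.89% of all genes show in that direction. The difference of 0.94 had a 95% interval of 0.42 to 1.45, an unadjusted p of 0.00221 and an adjusted p of 0.823 (limma). The 4 vehicle libraries titled GFP- that enter it were not above background. C1qc had a difference of 0.81 (95% interval 0.18 to 1.43, unadjusted p of 0.016, adjusted p = 0.823, limma), with no library titled GFP- above background in either treatment.

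In the libraries titled GFP+, odor over vehicle passed for 0 of 9 genes, beside 0.0103% of all genes (2 genes, limma). At an unadjusted p under 0.05 (limma) it was 1 of the 9, C1qc, and 827 of all 19505 genes. The log2 ratios ran from -0.69 (C1qc, 95% interval -1.38 to -0.0014, unadjusted p of 0.0496, adjusted p = 0.999, limma) to 0.40 (H2-Aa, 95% interval -0.25 to 1.06), with a median of 0.13. C1qc averaged 4.50 ± 0.47 in odor and 5.19 ± 0.64 in vehicle libraries titled GFP+ (SD, n = 4 each), and the groups overlapped. For Lyz2 the interval of -0.55 to 1.14 leaves room for a change of up to 2.20-fold, and for Csf1r the interval was -0.93 to 0.61.

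In the libraries titled GFP-, odor over vehicle passed for 0 of 9 genes and for 0% of all genes (limma). At an unadjusted p under 0.05 (limma) it was 1 of the 9, H2-Eb1, and 869 of all 19505 genes. The log2 ratios ran from -0.31 (H2-Aa, 95% interval -0.83 to 0.21) to 0.72 (Lyz2, 95% interval -0.12 to 1.56), with a median of 0.21. H2-Eb1 averaged 4.95 ± 0.35 in odor and 4.40 ± 0.41 in vehicle libraries titled GFP- (SD, n = 4 each), a log2 ratio of 0.55 (95% interval 0.03 to 1.07, adjusted p = 0.996, limma). These comparisons share libraries with the gate ratios, so they are not separate evidence.

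**Figure D4:**
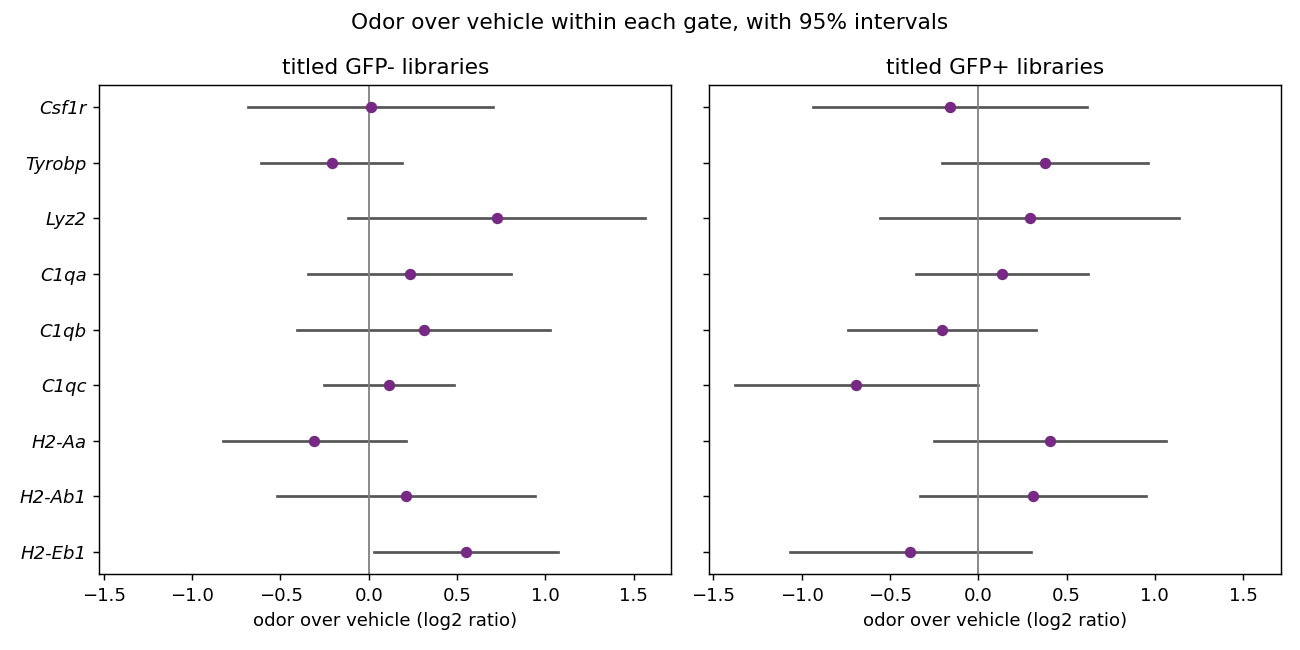
Odor over vehicle (log2 ratio, horizontal axis) of the 9 measured genes in libraries titled GFP- (left) and titled GFP+ (right); points are limma estimates from 4 against 4 libraries and bars are their 95% intervals. Most intervals include 0, with H2-Eb1 in libraries titled GFP- (0.03 to 1.07) and C1qc in libraries titled GFP+ (upper bound -0.0014) the exceptions, and no gene passed the adjusted threshold.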

How the data were processed

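RNA of 16 sorted libraries was measured on Clariom S mouse arrays. Per the submitters' processing notes, the authors used Affymetrix Expression Console to make the deposited log2 values per probe set. How probes were summarised, the software version and the build of the genome were not given in the sources used here. Of 28846 probe sets, 19572 carry 1 gene name in the platform annotation, 2634 carry none, and the probe set with the highest mean stood for each of 19505 genes. Coordinates and promoter sequences are from RefSeq (GRCm38.p6).

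Gate ratios were fitted with limma 3.58.1 in R 4.3.3 (lmFit, eBayes) on all 16 libraries, with the 8 pools as a block. Odor over vehicle was fitted on the 8 libraries of a gate without a block. P-values are two-sided and Benjamini-Hochberg adjusted over all genes. The pool block rests on titles that share treatment and number and on 24 mice in pools of 3; paired libraries deviated together (r of 0.135 to 0.287 in odor, 0.098 to 0.201 in vehicle pools). The same numbers also went together between odor and vehicle libraries titled GFP+ (0.157 to 0.210). The fit was also run on simulated data with noise drawn independently for each gene and library. Noise shared by the genes of an array was not simulated, and no result here rests on that run.

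The 10 genes and the 18 wider lists were chosen with earlier results of these data known. Genes named from a list are up to 4 with the largest fitted vehicle gate ratio past the threshold, plus the 5 genes most like the C1q and the class II mean (3 class II genes, since Cd74 was not analysed here). Trem2, Hcst, C1ra, C1s1, Ciita, the Rfx and H2-DM genes, Tapbp, Calr, Pdia3, Csf1, Il34, Batf3 and the markers named as not above background were chosen after their values were seen. So were Mrc1, Irf8, Adgre1, Aif1 and Cx3cr1. A group is not above background when every library lies at or below the vomeronasal 95th percentile of its own array. Alternatives were other centring, quantile normalization, leaving out dim probe sets, averaging probe sets, the block, and leaving out each replicate.

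Results of the remaining lists were as follows. T and NK cell genes fell in 5 of 10 cases in odor pools and 4 in vehicle pools. Mast cell and eosinophil genes fell in 4 and 5 of 8, and erythroid genes in 2 of 2 in both. Ensheathing glia genes fell in 1 and 0 of 5, and endothelial genes in 2 and 0 of 6. The share of all genes called lower was 10.2% in odor pools and 9.95% in vehicle pools. For T and NK cell calls, 4 of 5 in odor and 3 of 4 in vehicle pools had no library titled GFP- above background. The same held for 3 of 4 and 4 of 5 mast cell and eosinophil calls, and for all glia and endothelial calls. Cd3g and Ms4a2 in vehicle pools and Tek in odor pools were called with no library of either gate above background.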

Additional observations from a re-analysis of the deposited data

Results flagged for a closer look

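Groups of 4 values were checked for 1 value far from the other 3, by Dixon's 95% critical value for a gap as a share of the whole range. Of 54 groups checked 5 stood out, and chance gives about 1 in 20. C1qa had 4.46 in odor replicate 2 titled GFP-, below the other 3 libraries. H2-Eb1 had 3.78 in vehicle replicate 1 titled GFP-, below the other 3 and below background. Tyrobp had 7.85 in vehicle replicate 2 titled GFP+, above the other 3. H2-Aa had 9.43 in vehicle replicate 1 titled GFP+, below the other 3. The gate difference of C1qb was -3.34 in vehicle pool 3, further from 0 than in the other 3 vehicle pools.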

How the results depend on the processing

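The gate ratios of the 9 genes stayed below 0 under every alternative run. Only the centrings and quantile normalization could have turned a sign. The other alternatives keep the ratios or average fewer pools, all of which lay below 0. The calls that changed were those of C1qa and C1qc in odor pools given above. Leaving out a replicate gave 7 to 9 genes lower in odor pools and 9 in vehicle pools. Over all genes, calls in odor pools numbered 6968 with each library centred on its median and 12174 centred on the median of the named genes (an alternative chosen after seeing the data), against 3521 as deposited, and in vehicle pools 12023 centred on the named genes, against 3156. The share of calls that were higher was 43.3% as deposited in odor pools, 75.5% and 87.3% under these centrings and 55.0% under quantile normalization, and in vehicle pools 38.5%, 53.1%, 87.3% and 53.7%. The median gate ratio of all genes was 0.30 and 0.46 under these centrings in odor pools and 0.17 and 0.44 in vehicle pools, and the median of the 9 genes was then -3.03 and -2.88 in odor pools and -3.31 and -3.04 in vehicle pools.

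With the replicate number as a block, odor over vehicle in libraries titled GFP+ called 1 of all genes, against 2 without it. It called 0 with dim probe sets left out and 0 to 2 without 1 replicate. The smallest adjusted p of the 9 genes with the replicate block was 0.819 in libraries titled GFP+ and 0.909 in libraries titled GFP- (limma). Libraries titled GFP- share only a number (r of 0.088 to 0.161, 8 of 8 libraries closest to their own). The gate ratios without the pool block gave 8 and 9 genes lower.

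Signs of small values turned. The difference between treatments for H2-Ab1 was 0.014 with each library centred on its median and -0.44 to 0.36 without 1 replicate, that for C1qa was -0.04 to 0.27 and that for Csf1r -0.078 to 0.66. Csf1r odor over vehicle was -0.37 to 0.14 in libraries titled GFP+ and -0.25 to 0.30 in libraries titled GFP-, where it was -0.0097 centred on the named genes, and C1qc there was -0.0060 to 0.22. The cause was not tested. Signals at or below the background gauge in libraries titled GFP- limit Csf1r, Tyrobp, the 3 C1q genes and H2-Eb1 in both treatments, H2-Aa in odor pools and Lyz2 in vehicle pools, so that their folds are bounds, and the 4 libraries per group limit what odor comparisons can show.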
